A study of Mus musculus with 36 samples.

Results

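CpG methylation in mouse liver was examined at 10 genes of hepcidin and iron homeostasis, namely Hamp, Hamp2, Trf, Tfr2, Tfrc, Hfe, Slc40a1, Bmp6, Tmprss6 and Fth1, out of 21410 autosomal protein-coding genes. The genes were chosen by name, with earlier results of these data known. Each was taken from 5000 bp before its start to 5000 bp past its end in the mm9 genome. These spans covered 384299 bp and held 4774 of the 18887127 autosomal CpGs in the data. They were divided into windows of 500 bp, of which 749 held a CpG and 423 could be tested. Testing required 5 or more CpGs in a window and a read count, summed over these CpGs, of 30 or more in every animal. Across the 10 genes, the difference that stood out lay at Hamp2, where a window just past the gene had a mean methylation of 84.5% ± 2.95 (SD, n = 6) in sires and 36.4% ± 3.00 (SD, n = 6) in dams.

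Hepcidin, the product of Hamp, is a peptide hormone that liver cells secrete when iron is plentiful. It binds ferroportin, the iron exporter encoded by Slc40a1, and has it degraded, so that less iron enters the blood. Bmp6 is the ligand that raises Hamp transcription as iron rises, and Hfe and Tfr2 take part in sensing transferrin, the iron carrier encoded by Trf. Tmprss6 is a membrane protease that restrains the signal, Tfrc is the receptor that takes up transferrin, and Fth1 is the heavy chain of ferritin, which stores iron. Mice carry a second hepcidin gene, Hamp2, beside Hamp on chromosome 7.

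The 24 livers came from 6 families, with 3 families of each cross, and each family gave a sire, a dam, a son and a daughter. The labels used here do not show which animals form a family, so related animals entered the tests as independent. B6C3F1 animals had a C57BL/6N (B6) dam and a C3H/HeN (C3) sire, and C3B6F1 animals had a C3 dam and a B6 sire. There were 3 animals in each of the 8 groups, B6 sires, B6 dams, C3 sires, C3 dams, B6C3F1 sons, B6C3F1 daughters, C3B6F1 sons and C3B6F1 daughters. Parents were mated at 10 weeks, litters were weaned at week 16, and all animals were killed at week 20. According to the paper, the ages at death were identical, and daughters were killed at the same age as dams. The dams had therefore borne and nursed a litter while the daughters were virgins, and the parents were inbred while the offspring were hybrids. In a comparison of dams with daughters, these differences cannot be told apart. When sires are compared with dams, sex cannot be told apart from having borne and nursed a litter.

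Whole-genome bisulfite sequencing gave read counts that summed to 365740739 to 619888157 over autosomal CpGs per animal, or 19.4 to 32.8 reads per CpG, and mean methylation lay between 75.0% and 77.5%. A read that covers several CpGs is counted at each of them, so summed counts exceed the number of reads. As a check on the tissue, the promoters of 10 hepatocyte marker genes had a median methylation of 26.0% to 34.1% in the 8 groups. The promoters of 6 leukocyte markers had medians of 82.3% to 85.6%, and those of 6 Kupffer cell markers had medians of 81.5% to 85.6%. For 6 endothelial markers the medians were 67.1% to 70.2%, and for 4 stellate cell markers 17.2% to 22.3%, which is below those of the hepatocyte markers. No marker promoter of the 5 cell types listed had an adjusted p below 0.05 in a comparison of sexes or of generations, whereas 3 hepatocyte markers and 1 stellate cell marker had it between B6 and C3. In that comparison the hepatocyte markers had a median difference of 5.19 points, higher in B6, and the other lists had medians of -2.52 to -1.64 points. Each value is an average over the cells of a liver, so a change in a share of the cells and a change in the methylation of each cell cannot be told apart.

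Hamp and Hamp2 are near copies, and their sequences are shown because the difference between sires and dams passed the test at Hamp2 and not at Hamp. In the 250 bases before the start, Hamp (chr7:31729037-31729286, minus strand) and Hamp2 (chr7:31709201-31709450, minus strand) were taken from the mm9 genome and are written 5′ to 3′, with the CpGs in capitals.
Hamp: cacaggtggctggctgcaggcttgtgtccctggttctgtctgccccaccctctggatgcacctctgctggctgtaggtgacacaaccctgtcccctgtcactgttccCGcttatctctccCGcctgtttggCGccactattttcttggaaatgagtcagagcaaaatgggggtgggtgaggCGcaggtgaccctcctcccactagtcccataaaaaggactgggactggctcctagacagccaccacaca
Hamp2: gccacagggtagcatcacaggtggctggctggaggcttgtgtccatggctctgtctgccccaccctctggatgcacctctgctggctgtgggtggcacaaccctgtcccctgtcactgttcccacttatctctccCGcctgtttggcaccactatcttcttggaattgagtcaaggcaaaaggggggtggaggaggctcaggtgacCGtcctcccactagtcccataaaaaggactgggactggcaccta
Over the 300 bases that also include the first 50 of the transcript, 267 of 285 aligned bases (93.7%) were the same. The Hamp promoter holds the letters GGCGCC, those of the element through which the BMP signal acts on hepcidin, at positions 130 to 135 counted from its 5′ end. The aligned bases of Hamp2 carry the substitution G133A and so have no CpG there. These letters, searched on both strands, were found in 15.3% of the 21410 promoters of the same length, and Tfrc was the only other gene of the 10 with them. The letters TTCNNNGAA, which resemble a STAT site, were found in both Hamp and Hamp2 and in 7.81% of promoters.

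A stretch past the 3′ end of Hamp2 with 4 of the CpGs that differed between sires and dams lies at chr7:31706578-31706721. The aligned stretch past Hamp lies at chr7:31726389-31726523, and both are on the minus strand. They are given in the direction of transcription with CpGs in capitals, and they show that Hamp2 has 4 CpGs here where Hamp has 2. The difference was not limited to this stretch.
Hamp2: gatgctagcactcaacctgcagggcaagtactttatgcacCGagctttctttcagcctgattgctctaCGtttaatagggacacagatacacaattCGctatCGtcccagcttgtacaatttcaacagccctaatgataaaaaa
Hamp: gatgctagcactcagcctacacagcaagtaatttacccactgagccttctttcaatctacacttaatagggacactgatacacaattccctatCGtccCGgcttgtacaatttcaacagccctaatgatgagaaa
Across the spans of Hamp and Hamp2, 0 single-base differences between B6 and C3 were listed, so that both strains have these letters as far as the list shows.

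The Hamp2 window at chr7:31706501-31707000 held 6 CpGs in intergenic sequence, 391 to 890 bp past the end of the gene. Methylation in B6 sires was 86.5%, 86.1% and 88.5%, and in B6 dams it was 35.3%, 39.5% and 38.5%. In C3 sires it was 81.6%, 81.5% and 82.5%, and in C3 dams 33.9%, 39.0% and 32.3%. The lowest sire lay far above the highest dam in each strain. The difference between sires and dams was 48.1 percentage points (3.19 ± 0.14 SE on the log2 ratio of methylated to unmethylated reads, adjusted p = 7.43e-15). Within B6 it was 49.3 points (adjusted p = 4.0e-11), and within C3 it was 46.8 points (adjusted p = 1.15e-10).

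A window was called when its adjusted p was below 0.05 and its group means were 20 or more points apart. This was met by 1 of the 423 windows of the 10 genes between sires and dams, against 0.104% of all 1456902 autosomal windows. The Hamp2 window was 11th of the 520 windows called higher in sires when these were ordered by size. It was also the only window of the 10 genes called within B6, where the share of all windows was 0.0999%, and within C3, where it was 0.154%. Strain and sex together showed no further difference at this window that passed the test (adjusted p = 0.968 for the interaction). The read counts summed over its 6 CpGs were between 87 and 211 per animal, and the window could not be tested when a sum of at least 100 was required.

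**Figure D1:**
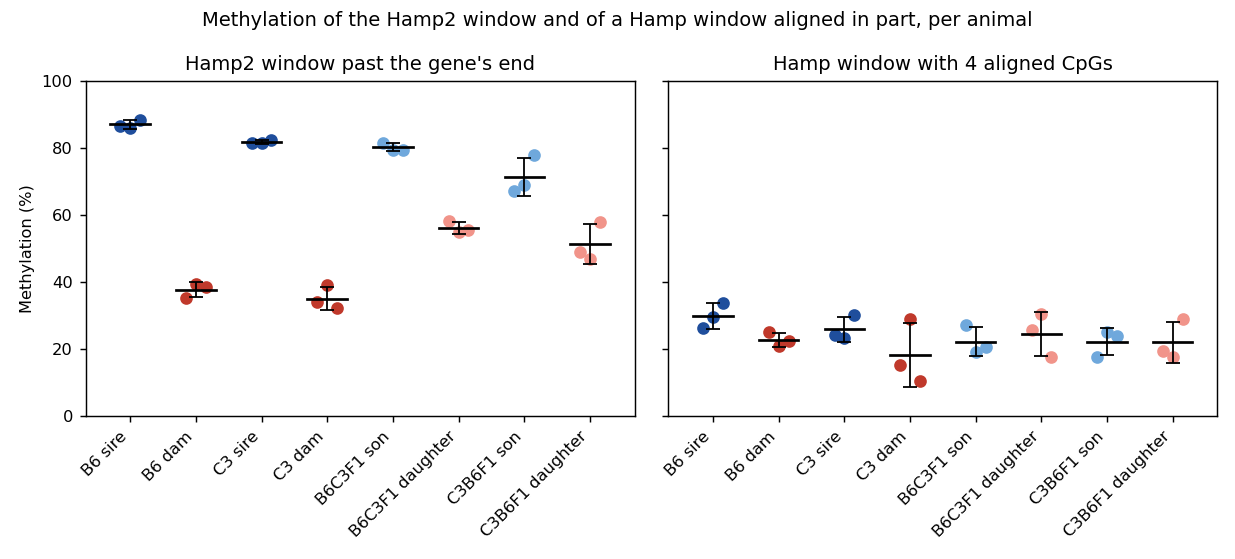
Methylation in percent of the Hamp2 window past the gene (left) and of the Hamp window that holds 4 CpGs aligned with Hamp2 CpGs in or beside it (right) in each of the 24 animals, by group; points are animals, and bars are the mean ± SD of 3. At Hamp2 all sires sit between 81.5% and 88.5% and all dams between 32.3% and 39.5% with daughters between the dams and the sons, while at Hamp all animals lie between 10.5% and 33.7%.

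In the offspring the same window differed between the sexes by less. B6C3F1 sons had 81.6%, 79.5% and 79.5%, and B6C3F1 daughters had 58.1%, 55.0% and 55.4%. C3B6F1 sons had 67.3%, 69.0% and 77.9%, and C3B6F1 daughters had 49.0%, 47.0% and 58.0%. Sons and daughters did not overlap in either cross. Their difference was 22.0 points (1.43 ± 0.14 SE on the log2 ratio, adjusted p = 2.0e-07), and the window was again the only one of the 10 genes called, against 0.0511% of all windows. It was 29th of the 52 windows called higher in sons.

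The difference between the sexes was itself 26.0 points wider in parents than in offspring (1.77 ± 0.20 SE on the log2 ratio, adjusted p = 2.38e-05). This test of generation by sex called 1 of the 423 windows, against 0.0184% of all windows. In percentage points, the larger share of the gap lay among females, and whether the shares differed was not tested. All dams were below all daughters, the lowest daughter having 47.0% against 39.5% in the highest dam, and the difference was -17.4 points (adjusted p = 0.000204), which is short of the 20 points required for a call. Sires were higher than sons by 8.67 points, which did not pass the test (adjusted p = 0.0611), and 1 of the 6 sons, B6C3F1 son 1, lay above the lowest sire. The difference between the crosses, B6C3F1 against C3B6F1, did not pass the test (adjusted p = 0.563).

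Single CpGs showed where along Hamp2 sires and dams parted. With the reads of 6 animals pooled, the 4 neighbouring CpGs at 2520 to 2582 bp past the start had 77.2% to 89.5% in sires and 26.9% to 40.1% in dams. In sires they had 143 to 181 reads each, against 30 and 46 at the window's CpGs 2361 and 2243 bp past the start. The value of the window therefore rests mostly on these 4 neighbours. Next to the window, the CpG at 2891 bp past the start had 81.0% in sires and 30.6% in dams. Before the gene, the CpG at position -1055 from the start had 84.1% in sires and 35.2% in dams, 81.7% in sons and 64.6% in daughters. The CpGs at 43 and 114 bp ahead of the start were low in every set, with 8.9% to 21.7%. The difference was found on both sides of these CpGs.

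Between the outermost Hamp2 CpGs with a gap of 40 points or more, from -1055 to 2891 bp relative to the start, 24 of 26 CpGs were higher in sires than in dams, and the median difference was 29.2 points. These limits were set from the values, so the counts are a description. In sons against daughters, 24 of the 26 were higher, with a median of 15.4 points. The CpG at 2361 bp past the start, with 30 to 37 reads in each set, stood at 88.2% or more in sires, dams, sons and daughters alike. Over the same distances from the start, Hamp had 27 CpGs, of which 19 were higher in sires than in dams (median difference 2.86 points, at most 17.3) and 21 were higher in sons than in daughters (median 4.60 points, at most 20.4).

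**Figure D2:**
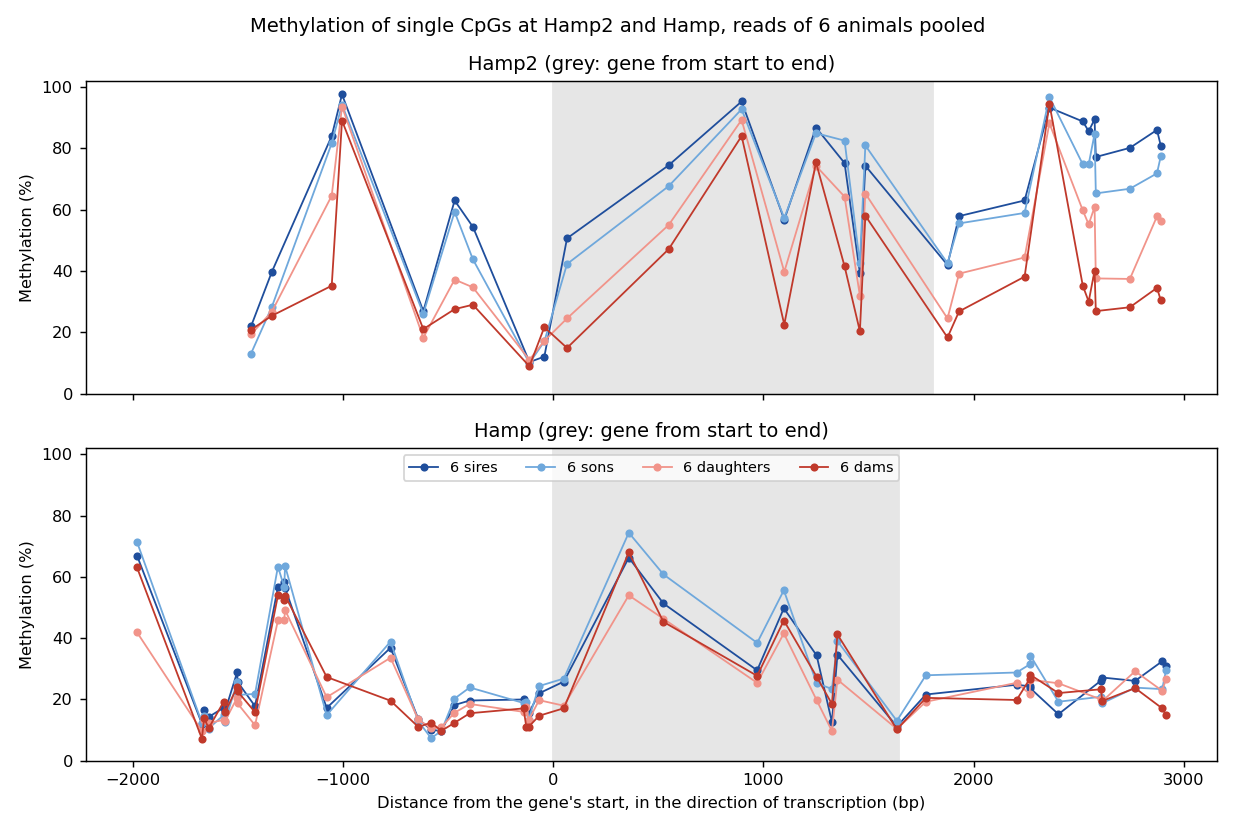
Methylation in percent of single CpGs at Hamp2 (top) and Hamp (bottom) against distance from the gene's start in bp; each point pools the reads of 6 sires, 6 dams, 6 sons or 6 daughters and needed at least 30 reads in each. At Hamp2 the sires and dams are 48.8 points apart at -1055 bp, 1.37 points at -114 bp and 35.8 points at 65 bp. At Hamp the median difference is 2.86 points.

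In a Hamp window chosen because it holds CpGs aligned with CpGs in or beside the Hamp2 window, the difference did not pass the test. The Hamp window at chr7:31726001-31726500, 890 to 1389 bp past its end, holds 4 CpGs aligned with Hamp2 CpGs, of which 1 lies in the Hamp2 window and 3 lie in the window next to it, at chr7:31706001-31706500. It therefore mostly covers sites beside the Hamp2 window, and that next Hamp2 window, tested when 3 CpGs were enough, differed between sires and dams by 51.1 points (adjusted p = 1.18e-09). B6 sires had 26.1%, 29.6% and 33.7% and B6 dams 25.0%, 20.9% and 22.5%. C3 sires had 24.2%, 23.3% and 30.2% and C3 dams 15.1%, 29.0% and 10.5%. Sires and dams overlapped, and the difference was 7.37 points (adjusted p = 0.240). Between sons and daughters it was -1.07 points (adjusted p = 0.986). With the reads of 6 animals pooled, the Hamp CpG at 2916 bp past the start had 30.9% in sires and 14.9% in dams, and the other 3 were 15.4, 2.34 and 2.86 points higher in sires. At the 4 aligned Hamp2 CpGs sires were higher by 50.3 to 52.0 points.

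The gap between the genes in each animal is given as a description, chosen after the values were seen. Methylation of the Hamp2 window minus that of the Hamp window was 52.3 to 60.3 points in the 6 sires and 9.99 to 21.8 points in the 6 dams, and 44.0 to 60.4 points in sons against 24.5 to 37.9 points in daughters. Along the aligned stretch, 14 of 15 aligned CpG pairs were higher at Hamp2 than at Hamp in sires, and 12 of 15 in dams.

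Reads of near copies can be placed on the wrong gene. The longest alignment of Hamp2 with Hamp ran over 2779 columns at 92.7% identity and included the whole window. Hamp2 had 17.1 to 17.7 reads per CpG in B6, C3 and F1 animals, Hamp had 19.8 to 22.3 and the other 8 genes had 20.6 to 29.3. At the Hamp2 CpG 2582 bp past the start there were 180 reads in sires and 193 in dams, a like depth in both sexes. Whether reads were misplaced between the copies was not tested.

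At the Hamp2 promoter, taken from 1000 bp before to 500 bp after the start and holding 6 CpGs, sires were also above dams. B6 sires had 35.7%, 38.4% and 40.1% and B6 dams 20.5%, 19.0% and 25.0%. C3 sires had 31.7%, 39.2% and 36.7% and C3 dams 21.6%, 14.8% and 22.1%. All sires were above all dams, and the difference of 16.4 points passed the test without reaching 20 points (1.17 ± 0.14 SE on the log2 ratio, adjusted p = 4.99e-06). Sons had 24.7% to 38.5% and daughters 20.7% to 28.2%, which overlapped, and the difference was 9.85 points (adjusted p = 0.0263). This last result did not hold throughout, since the adjusted p was between 0.0633 and 0.108 when B6C3F1 son 1 or 2, B6C3F1 daughter 1 or 2, C3B6F1 son 2 or 3 or C3B6F1 daughter 1 or 2 was left out, and 0.393 with a quasi-binomial test. Promoters called were 0 of 10 between sires and dams, against 0.0499% of 20027 promoters, 0 within B6 (0.0549%), 0 within C3 (0.0699%), 0 between sons and daughters (0.035%) and 0 between B6 and C3 (0.34%). With 10 points in place of 20, Hamp2 was called between sires and dams (0.21% of promoters), within B6 (0.125%) and within C3 (0.23%).

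The body of Hamp2, from 500 bp past the start to the end, was called. B6 sires had 72.2%, 63.7% and 70.3% and B6 dams 43.3%, 52.4% and 54.0%. C3 sires had 71.1%, 71.6% and 78.0% and C3 dams 47.8%, 44.7% and 41.5%. The groups did not overlap, and the difference was 23.9 points (1.46 ± 0.12 SE on the log2 ratio, adjusted p = 1.29e-07). It was the only body of the 10 called, against 0.0414% of 19338 bodies. The bodies of Hamp2 and Hamp held 7 CpGs each, and those of the other genes held 33 to 1686. Within C3 the difference was 28.9 points and was called (adjusted p = 1.79e-06), against 0.0569% of bodies, whereas within B6 it was 18.8 points (adjusted p = 0.00046) and fell short of 20 points, which 0.031% of bodies reached. Leaving out B6 sire 2, B6 dam 2 or B6 dam 3 brought the difference within B6 to a call.

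In the offspring the Hamp2 body was higher in sons than in daughters by 13.4 points (adjusted p = 0.000268). Sons had 68.2% to 75.3% and daughters 54.4% to 61.9%, without overlap. Dams were lower than daughters by 11.3 points, a difference of -11.3 (adjusted p = 0.00614). The test of generation by sex gave 10.5 points and did not pass (adjusted p = 0.0572). At 20 points 0 of the 10 bodies were called between sons and daughters (0.0103% of bodies) or between dams and daughters (0%), and at 10 points Hamp2 was called in both (0.0621% and 0.031%) and within B6 (0.181%).

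Hamp, the hormone gene itself, had no call in any comparison. Its promoter had 23.0% to 28.7% in B6 sires, 18.6% to 20.4% in B6 dams, 15.1% to 23.5% in C3 sires and 13.1% to 19.6% in C3 dams. B6 parents were higher than C3 parents by 5.43 points, which did not pass (adjusted p = 0.0518). The promoters of the hepatocyte markers had a median difference of 5.19 points in the same direction. The promoter fell on the other side of the threshold when B6 sire 2, C3 sire 1, C3 dam 3, B6C3F1 daughter 1 or 3, C3B6F1 son 3 or any C3B6F1 daughter was left out. The body passed, with a difference of 7.72 points (0.51 ± 0.16 SE on the log2 ratio, adjusted p = 0.0138), and B6 parents had 31.3% to 42.5% against 21.4% to 33.5% in C3 parents, with overlap. With a quasi-binomial test the body did not pass (adjusted p = 0.0747).

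The Hamp window over the start itself, at chr7:31729001-31729500, had a similar small difference. B6 parents were higher by 7.95 points (adjusted p = 0.0456), with 14.3% to 30.3% against 8.8% to 19.1%. Between sires and dams the Hamp promoter differed by 4.73 points (adjusted p = 0.444) and the body by 2.20 points (adjusted p = 0.688). In offspring the Hamp body was 9.27 points higher in sons, which did not pass (adjusted p = 0.0525) unless C3 sire 2 or 3, B6C3F1 son 1, B6C3F1 daughter 1 or C3B6F1 daughter 1 was left out. The widest spread of group means among Hamp windows, 16.7 points, was at chr7:31730001-31730500, over an exon of the neighbouring Usf2, and it passed in no comparison.

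The promoters of the other members are given by their range over the 24 animals. The promoter of Bmp6, the ligand, had 3.1% to 6.2%. Among the iron carriers and receptors, Trf had 3.6% to 14.6% and Tfrc 1.8% to 5.0%, whereas Tfr2 had 20.5% to 29.0% and Hfe 9.1% to 22.1%. The promoter of Slc40a1, the exporter, had 1.3% to 4.0%, and that of Fth1 had 4.0% to 8.4%. Tmprss6 had 11.4% to 27.6%, and its promoter was 5.01 points higher in B6 than in C3 parents without passing the test (adjusted p = 0.0572).

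Bodies were mostly methylated. Bmp6 had 78.8% to 81.2%, Tfr2 74.7% to 81.4%, Tfrc 75.8% to 81.7% and Hfe 71.9% to 76.9%. Tmprss6 had 65.1% to 69.8% and Slc40a1 53.6% to 63.7%. The body of Trf was lower, at 42.6% to 52.0%, and that of Hamp had 21.4% to 45.5%. That of Fth1 was the lowest, at 13.8% to 22.2%, and overlapped with Hamp. The neighbours Tfr2 and Tfrc in this order overlapped, as did Hfe and Bmp6 with both, and Hamp2 spread from 41.5% to 78.0%.

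**Figure D3:**
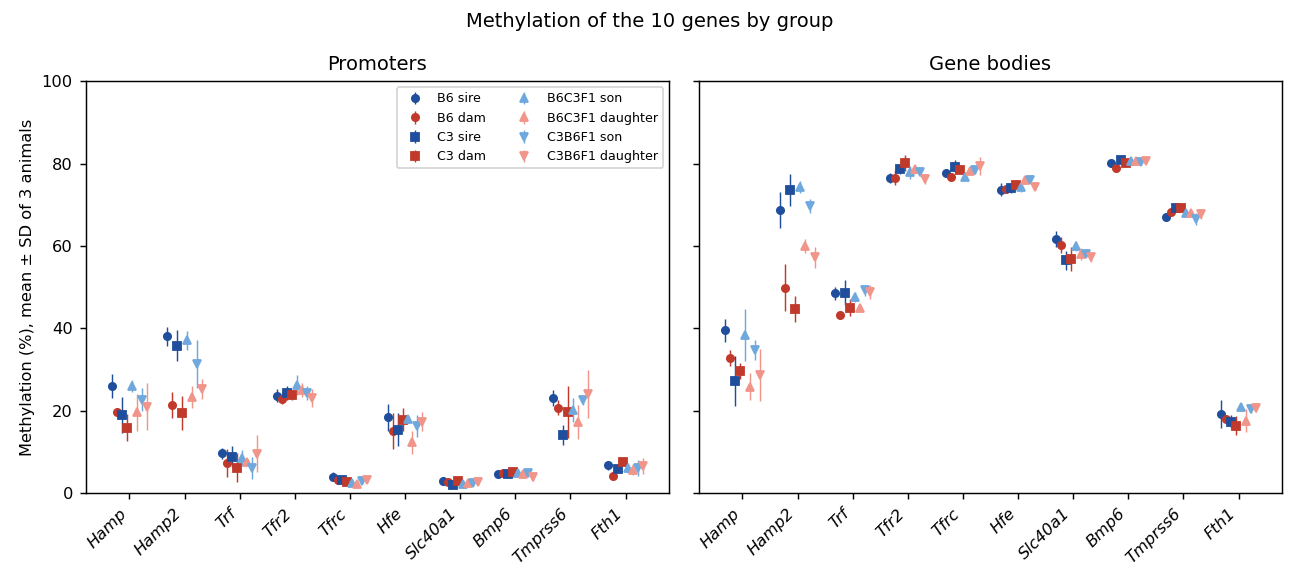
Methylation in percent of promoters (left) and gene bodies (right) of the 10 genes; each symbol is the mean of 3 animals of a group with its SD. At Hamp2 the bodies of dams lie at 44.7% and 49.9% and those of sires at 68.7% and 73.6%.

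Between B6 and C3 parents, 0 of the 423 windows were called, against 0.494% of all windows. An adjusted p below 0.05 was reached by 25 windows (5.91%), 11 higher and 14 lower in B6, against 6.66% of all windows. The share was 0% at Tfrc, Hfe and Fth1, 2.59% at Bmp6, with 193 of the windows, and 5.26% to 18.2% at the other genes. Listed single-base differences between the strains numbered 0 per kb at Hamp, Hamp2 and Tfr2, 0.0787 at Bmp6 and 0.077 at Tmprss6. The other genes had 0.177 to 4.11, and all autosomes 1.17. With a difference of 10 points in place of 20, 5 windows were called, against 2.39% of all windows, and these were 3 at Trf and 2 at Tmprss6.

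At Trf, the transferrin gene, the 3 windows went both ways. The window at chr9:103127001-103127500, over an exon, had 29.4% to 44.0% in the 6 B6 parents (median 33.9%) and 42.5% to 60.7% in the 6 C3 parents (median 54.6%). The difference was -17.8 points (-1.05 ± 0.16 SE on the log2 ratio, adjusted p = 2.81e-05), and only the highest B6 animal overlapped with the lowest C3 animal. The window holds 3 of the listed differences between the strains, and 0 of its 9 CpGs lay within 10 bp of one.

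A second Trf window, at chr9:103123501-103124000 in an intron with 0 listed differences, was higher in B6. B6 parents had 48.8% to 64.4% (median 51.6%) and C3 parents 30.9% to 46.1% (median 34.3%), without overlap, and the difference was 17.3 points (adjusted p = 8.02e-05). The third lay before the gene at chr9:103135001-103135500, where B6 parents had 51.3% to 56.2% and C3 parents 33.1% to 45.3%, again without overlap (15.7 points, adjusted p = 6.57e-05). With the windows moved by 250 bp, the window at chr9:103134751-103135250 had a difference of 20.1 points and was called (adjusted p = 5.27e-06).

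At Tmprss6, the protease that restrains hepcidin, the window at chr15:78300001-78300500, -1436 to -937 bp from the start, had 53.3% to 67.7% in B6 parents and 36.5% to 50.2% in C3 parents. The strains did not overlap, and B6 was higher by 18.0 points (1.06 ± 0.16 SE on the log2 ratio, adjusted p = 1.51e-05). The 6 B6C3F1 offspring had 48.9% to 55.0% and the 6 C3B6F1 offspring 53.0% to 61.4%, between the means of both strains, 61.8% in B6 and 43.8% in C3. The next window outward, at chr15:78300501-78301000, was 11.3 points higher in B6 (adjusted p = 0.00376).

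The 25 windows that passed between B6 and C3 are given by gene. Tfr2 had 2 and Hamp2 had 1, all lower in B6, Bmp6 had 4 lower and 1 higher, and Tmprss6 had 5 lower and 2 higher. Trf had 5 higher and 2 lower, Slc40a1 had 2 and Hamp had 1, all higher in B6, and Tfrc, Hfe and Fth1 had 0. Slc40a1 had a window at chr1:45961501-45962000, 2915 to 3414 bp past its end, with 12.1% to 20.9% in B6 and 4.6% to 10.3% in C3 parents, which did not overlap (9.57 points, adjusted p = 0.000286). The body of Slc40a1 was 4.20 points higher in B6 (adjusted p = 0.00342). The body of Tfr2 differed by -2.78 points (adjusted p = 0.00626), that of Tmprss6 by -1.67 points (adjusted p = 0.0114), that of Tfrc by -1.62 points (adjusted p = 0.0494) and that of Bmp6 by -0.95 points (adjusted p = 0.00255). With Hamp, 6 of 10 bodies passed the test, against 42.0% of all bodies, and 0 reached 20 points, against 0.109%. Over all bodies the median difference between B6 and C3 was -0.894 points, close to the difference at Bmp6.

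**Figure D4:**
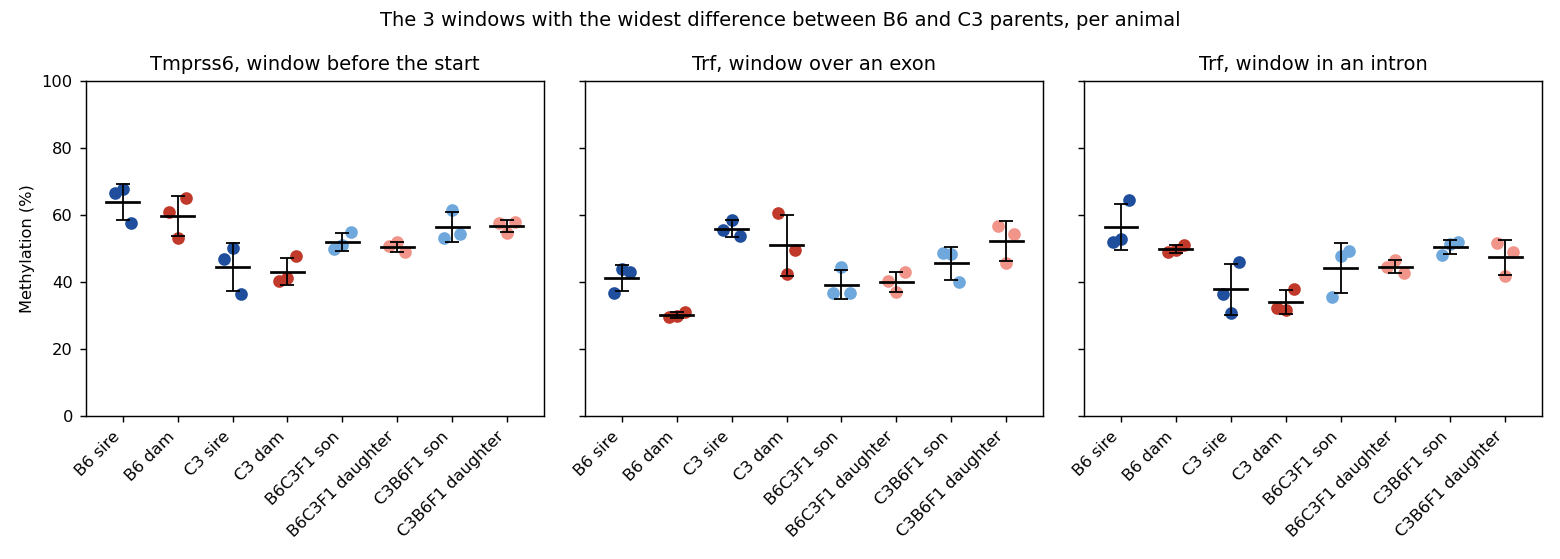
Methylation in percent in each of the 24 animals, by group, at the 3 windows of the 10 genes with the widest difference between B6 and C3 parents; points are animals and bars the mean ± SD of 3. B6 parents are higher at the Tmprss6 window and at the Trf intron window and lower at the Trf exon window, and offspring lie mostly between the strains.

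Apart from Hamp2, 4 windows passed the test between sires and dams, all with 10 points or more. Thus 5 of 423 windows (1.18%) passed, against 0.967% of all windows, and with 10 points the share of all windows was 0.572%. With 10 points, 2 windows were called within B6 (0.24% of all windows), 2 within C3 (0.437%) and 1 between dams and daughters (0.136%). Of the 4 windows that passed between sires and dams, Trf had 2. At chr9:103122001-103122500, over an exon, sires had 76.9% to 88.0% (median 81.8%) and dams 62.5% to 73.6% (median 70.6%), without overlap, and the difference was 12.5 points (0.99 ± 0.15 SE on the log2 ratio, adjusted p = 0.000112). It passed within B6 (12.5 points, adjusted p = 0.0117) and within C3 (12.4 points, adjusted p = 0.0365). At chr9:103113001-103113500, also over an exon, sires were 12.8 points higher (adjusted p = 0.0113), with 56.7% to 67.3% against 40.4% to 57.8%. Here sires and dams overlapped. Between sons and daughters, 0 of the 51 tested Trf windows passed, and their differences were -5.10 to 7.66 points.

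The body of Trf as a whole had the same direction. Sires had 46.3% to 52.0% and dams 42.6% to 47.0%, with overlap, and the difference was 4.56 points (adjusted p = 0.00358). It passed within B6 (5.39 points, adjusted p = 0.0241) and did not pass within C3 (3.73 points, adjusted p = 0.111). In offspring the difference between sons and daughters was 1.57 points (adjusted p = 0.624). The body of Bmp6 was 0.87 points higher in sires (adjusted p = 0.0112), so that 3 of 10 bodies passed, against 17.8% of all bodies. Between dams and daughters the Bmp6 body differed by -0.98 points (adjusted p = 0.0199). With Hamp2, 2 of 10 bodies passed in that comparison, against 4.76% of all bodies.

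Differences in the other direction were found at Bmp6 and Fth1. A Bmp6 window at chr13:38589501-38590000, in an intron near the end of the gene, had 47.4% to 59.9% in sires and 58.0% to 69.7% in dams, with overlap (-11.1 points, adjusted p = 0.0148). The Fth1 window at chr19:10052501-10053000, -4692 to -4193 bp from the start, had 33.0% to 39.3% in sires, and in dams at least 43.3% with a median of 49.8%, without overlap (-11.7 points, -0.69 ± 0.13 SE on the log2 ratio, adjusted p = 0.00299). In offspring the Fth1 window had 30.8% to 42.9% in sons and 40.1% to 47.3% in daughters, and the difference of -7.29 points did not pass (adjusted p = 0.253).

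**Figure D5:**
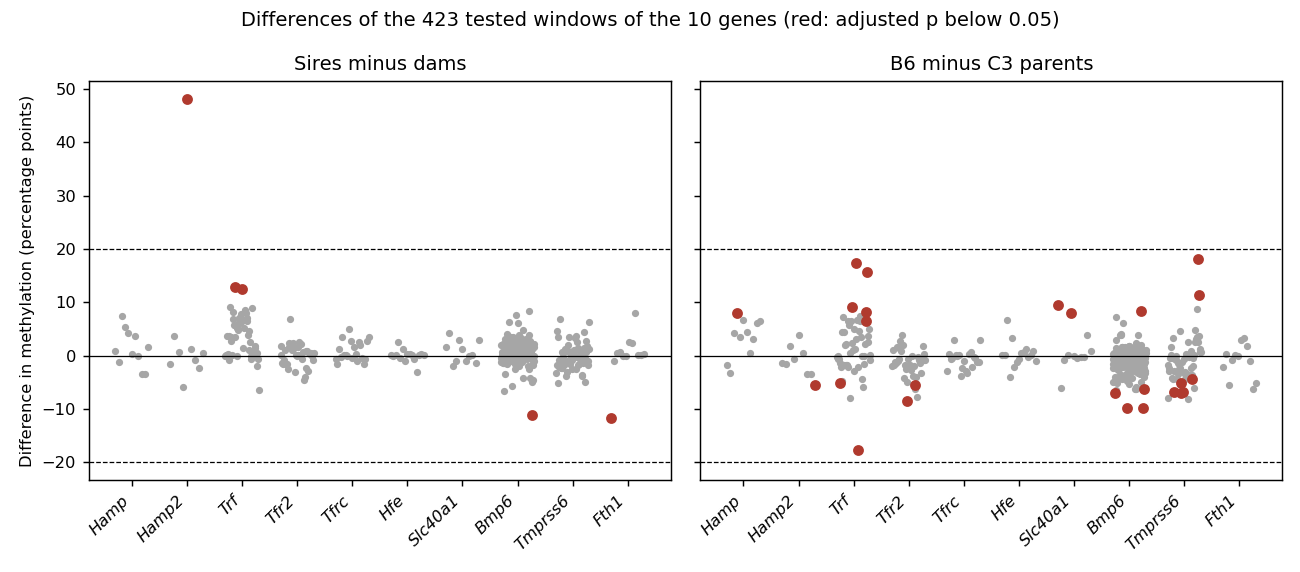
Difference in methylation in percentage points of each of the 423 tested windows, by gene, for sires minus dams (left) and B6 minus C3 parents (right); red points have an adjusted p below 0.05 and dashed lines mark 20 points. A single Hamp2 window stands at 48.1 points between sires and dams, while the widest strain differences, at Trf and Tmprss6, stay within 20 points.

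Where no window was called, the one with the widest spread of group means is given as a description. It was 25.8 points at the Trf exon window and 20.8 points at the Tmprss6 window above. It was 16.7 points at a Bmp6 intron window at chr13:38575001-38575500, 14.2 points at the Fth1 window and 13.7 points at a Slc40a1 window at chr1:45983501-45984000, -1561 to -1062 bp from the start. Tfr2 had 12.3 points at chr5:138026001-138026500 and Tfrc 10.9 points at chr16:32614001-32614500, both in introns. The lowest was Hfe, with 8.69 points at chr13:23790501-23791000, which lies in the promoter of the histone gene Hist1h4c.

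In the remaining comparisons, 0 of the 423 windows were called. This held for dams against daughters (0.0198% of all windows), sires against sons (0.0024%), B6C3F1 against C3B6F1 (0.000824%) and the interaction of strain and sex (0.00137%). Apart from the Hamp2 window between dams and daughters, 0 windows had an adjusted p below 0.05 by limma in these 4 comparisons. At an unadjusted p below 0.05 there were 43 windows for dams against daughters, where all windows gave 7.96%, 25 for sires against sons (6.25%), 27 for the crosses (6.72%) and 24 for the interaction of strain and sex (5.43%), with the share of all windows in brackets.

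Another 41 genes of iron handling and BMP signalling, out of a list of 44, were counted over 2157 windows. Between sires and dams, 3 windows of this list were called (0.139% of its windows, against 0.104% of all windows), with Hmox1, a haem-degrading enzyme, higher in sires by 20.6 points, and Fgl1, a hepatokine, and Smad7, an inhibitor of BMP signalling, at -32.2 and -23.6 points. The Fgl1 window also differed between sons and daughters, by -32.0 points (adjusted p = 2.1e-09). Smad7 was the gene with calls between dams and daughters, where 2 windows were higher in dams by 23.3 and 21.7 points, opposite to Hamp2 (0.0927% of the list's windows, against 0.0198% of all windows). The list also had 8 calls within C3 (0.371%, against 0.154%), 2 within B6 (0.0927%, against 0.0999%), 1 between sons and daughters (0.0464%, against 0.0511%) and 2, both at Smad7, for generation by sex (0.0927%, against 0.0184%). Between B6 and C3, 15 windows of the list were called (0.695%, against 0.494% of all windows), 5 higher and 10 lower in B6, and 0 promoters and 0 bodies of the list were called in any comparison.

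Over the 24 animals, the promoters whose methylation ran most like that of Hamp2, among 20027, were those of A1bg (Pearson's r = 0.851), Cyp2a4 (0.844) and Cyp2b10 (0.838). Those most like Hamp were Cyp2c39 (0.785), Unc13a (0.746) and Rnf186 (0.737), and those most like Tmprss6 were Col18a1 (0.775), Proz (0.762) and Slc38a10 (0.740). The animals fall into groups by sex, strain and cross, and these values are descriptions.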

How the data were processed

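Liver DNA of 24 mice had been sequenced after bisulfite treatment. Per CpG and animal, the deposited values are whole-number counts of reads, methylated and unmethylated apart. They aligned reads to mm9 with Bismark 0.7.8 and Bowtie 0.12.8, removed duplicates, clipped read ends and kept CpGs present in mm9 and both strains. The deposited list of bases at differences between the strains was used to mark CpGs within 10 bp. All 48 columns of counts were used. Every listed autosomal position was checked to be a CG in mm9.

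The 10 genes and the lists were chosen with earlier results of these data known. Counts were summed without normalization over windows, promoters and bodies of autosomes. Features with at least 5 CpGs and a summed count of 30 per animal were fitted with limma 3.58.1 (R 4.3.3) on log2((methylated + 1)/(unmethylated + 1)), with 8 group means, a trended prior and Benjamini-Hochberg adjustment over all features. The paper used DSS and Metilene, which were not run here. Differences are between group means of percent methylation. All 10 genes were named, with every called window and, where none was called, the window with the widest spread of group means. Windows that passed without being called, the Slc40a1 window and the Hamp window set beside Hamp2 were chosen after their values were seen. Sequences and motifs came from mm9 with the GENCODE annotation, and the genes were aligned with blastn 2.17.0 and Biopython 1.88. The fit was tested on simulated data. Mean depth over all autosomal CpGs was 19.4 to 32.8 reads per CpG, and the counting error of each value depends on the reads of its own CpGs. Replicates were separate animals, and family membership was not modelled. Libraries from FOXA1 immunoprecipitation were left out.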

Additional observations from a re-analysis of the deposited data

Results flagged for a closer look

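At the Hamp2 window just past the gene, the difference between sires and dams was 26.0 percentage points wider than the difference between F1 sons and F1 daughters (48.1 against 22.0 points, adjusted p = 2.38e-05 by limma). This result is listed because the test of the difference between the generations passed. With each of the 24 animals left out in turn, the value lay between 24.4 and 27.7 points and the adjusted p between 4.51e-06 and 0.00011. Parents were inbred and dams had nursed a litter, whereas offspring were hybrids and daughters were virgins, and these cannot be told apart here. Groups held 3 animals each, too few for a search for single animals that stand apart.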

How the results depend on the processing

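The 10 comparisons of windows, promoters and bodies were repeated with other settings and with each of the 24 animals left out in turn. The Hamp2 window could not be tested with a summed count of at least 100 per animal, which left 0 windows called between sires and dams, within B6, within C3, between sons and daughters and for generation by sex. With a difference of 10 points, windows called rose to 5 for B6 against C3, 5 for sires against dams, 2 within B6, 2 within C3 and 1 for dams against daughters, promoters called to 1 each for sires against dams, within B6 and within C3, and bodies called to 1 each within B6, for dams against daughters and for sons against daughters. With at least 3 CpGs, 4 windows were called for sires against dams, 3 within B6, 4 within C3 and 2 for sons against daughters, all at Hamp2. With windows moved by 250 bp, 1 Trf window was called for B6 against C3. Leaving out 1 animal moved the bodies called within B6 between 0 and 1, and the Hamp2 window between 47.4 and 49.0 points for sires against dams and between 20.4 and 23.7 points for sons against daughters. Of 84 pairs of animals with the same replicate number, 0 correlated above 0.1 in their deviations from the group means (-0.0088 to 0.065). The highest values, 0.0649, 0.0198 and 0.0183, were those of C3B6F1 sons with C3B6F1 daughters. Some pairs, such as B6 sires with B6 dams, could not be of the same family, so these values cannot decide whether the numbers mark families. The numbers were taken as names because the labels do not show families. A fit with a replicate block, which joins both crosses under each number, gave the same counts, with 1 window called for sires against dams (48.1 points at Hamp2, adjusted p = 4.1e-14). The Hamp promoter then passed for B6 against C3 (5.43 points, adjusted p = 0.0478). No count of calls changed with a pseudocount of 5, the arcsine scale, a robust prior or the quasi-binomial test.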
